A study of Mus musculus with 4 samples.

Results

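Liver and spleen were compared here within mice that had eaten the diet with added nucleoprotein, a complex of protein and nucleic acid, referred to as NP. The animals were male C57BL/6J mice, 13 weeks old, kept for 4 weeks on a purified diet with 1.2% nucleoprotein added, which brought the nucleic acids of the feed to 0.5%. The control animals ate the same purified diet at 0.03% nucleic acids and are referred to as low NP. RNA was pooled by diet and tissue, and the number of mice in a pool was not given in the sources used here. Each liver array and each spleen array carried an NP pool in 1 dye and the low-NP pool of that tissue in the other, and the dyes were exchanged on the second array. The comparison used the 4 NP channels of the 8 in the series. The Cy5 signal of liver was set against the Cy5 signal of spleen, and the Cy3 signal of liver against the Cy3 signal of spleen. Of 27670 gene labels on the array, 18381 were measured, meaning that the spot was well above its local background on both arrays of at least 1 tissue.

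The 4 channels come from 1 pool per tissue labelled in both dyes. They therefore show labelling and hybridisation error but no spread between mice, and no test was run. Values are log2 ratios of liver over spleen, so that positive values are higher in liver and negative values are higher in spleen. The value after ± is the distance of either dye's ratio from the mean of both. A gene was called when both dyes gave at least a 2-fold difference in the same direction. In whole-organ RNA, fewer cells of a type and less RNA per cell cannot be told apart.

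The Cy5 channel of the first spleen array stood apart from the others. On it, 94.7% of the probes were well above background, against 58.6% to 64.0% in the other 3 NP channels, and its median negative-control spot read 307 units against 62.7 to 74.0. The median spot read 1220 units there and 98.6 to 138 in the others. The 2 dyes are therefore given apart for the leading genes. They differed widely for some, such as the Kupffer cell gene Clec4f, at 9.96 in Cy5 spleen and 7.79 in Cy3 spleen. Without this array, the Cy3 ratio alone put 2761 genes at least 2-fold higher in liver and 3476 in spleen, against 3250 and 3675 by the Cy5 ratio alone.

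The liver is built mainly of hepatocytes, which make most plasma proteins, clear ammonia as urea, store and release glucose, form bile acids and break down drugs and purines. Its sinusoids hold Kupffer cells, the resident macrophages, and a fenestrated endothelium. The mouse spleen combines white pulp, where B and T cells gather around stromal cells that secrete chemokines, with red pulp, where macrophages recycle iron from old red cells. In mice the red pulp also keeps erythroid, megakaryocytic and granulocytic precursors throughout life.

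Of the measured genes, 2478 (13.5%) were called higher in liver and 2927 (15.9%) higher in spleen. The liver side reached further. At 4-fold, 1257 genes (6.84%) were higher in liver and 1199 (6.52%) in spleen, and at 16-fold 490 genes (2.67%) were higher in liver and 214 (1.16%) in spleen. The 16-fold counts moved with the processing, to 791 and 602 with the scanner software's processed signals and to 505 and 90 with median centring, with the liver count the larger each time. The median ratio over all measured genes was -0.06. Both dyes ordered the genes alike, with a correlation of 0.952 across genes, which share the same pools and are not replicates. The median distance between a dye's ratio and the mean was 0.12, and 8 genes passed 2-fold in opposite directions in the 2 dyes.

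**Figure D1:**
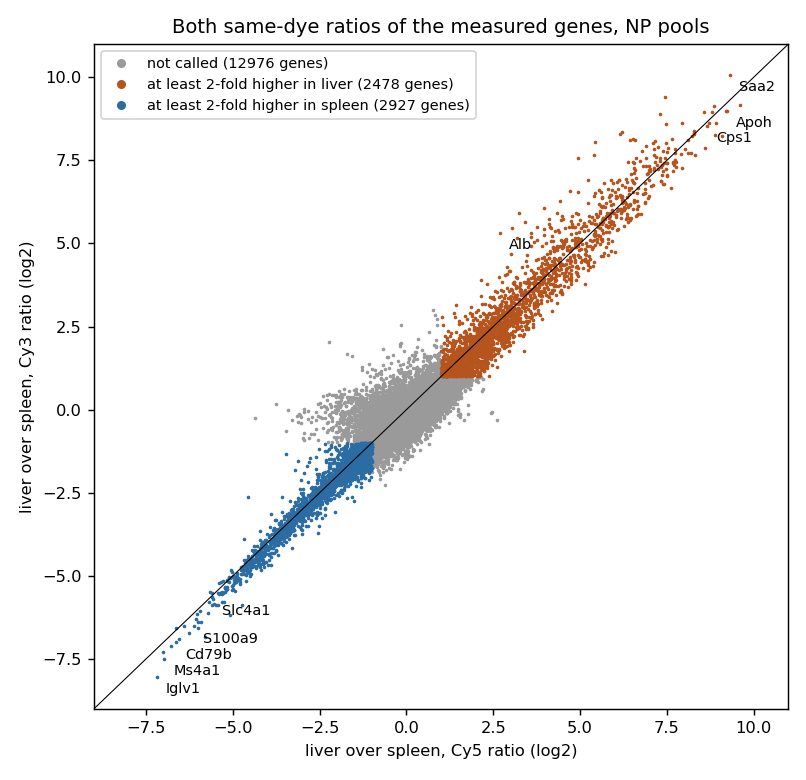
Liver over spleen log2 ratio of each measured gene in Cy5 (horizontal axis) and in Cy3 (vertical axis), with genes called in either direction coloured and the line of equal ratios drawn. The cloud reaches a mean of 9.70 for Saa2 on the liver side and -7.61 for Iglv1 on the spleen side, and Alb lies off the line.

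The markers of the labelled tissues were present as the labels state. Of 5 hepatocyte markers on the array, all were called higher in liver. Apoa1, the main protein of high-density lipoprotein, was at 16.76 in Cy5 liver, 17.14 in Cy3 liver, 10.20 in Cy5 spleen and 9.72 in Cy3 spleen on the log2 signal scale. Cyp2e1, an ethanol-oxidising cytochrome, was at 16.45 and 16.41 in liver and at 9.89 and 9.60 in spleen. The albumin gene Alb gave 18.01 and 17.94 in liver and 15.33 and 12.63 in spleen, a mean ratio of 4.00 ± 1.31, but its spot was saturated on 1 array. Of the 4 B cell markers, all were called higher in spleen, with Cd79b at 9.89 and 9.65 in liver and 16.52 and 16.65 in spleen. Liver and spleen values did not overlap for the genes named in this paragraph. All of them were called, which largely fixes this, and its share over all measured genes was not counted.

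**Figure D2:**
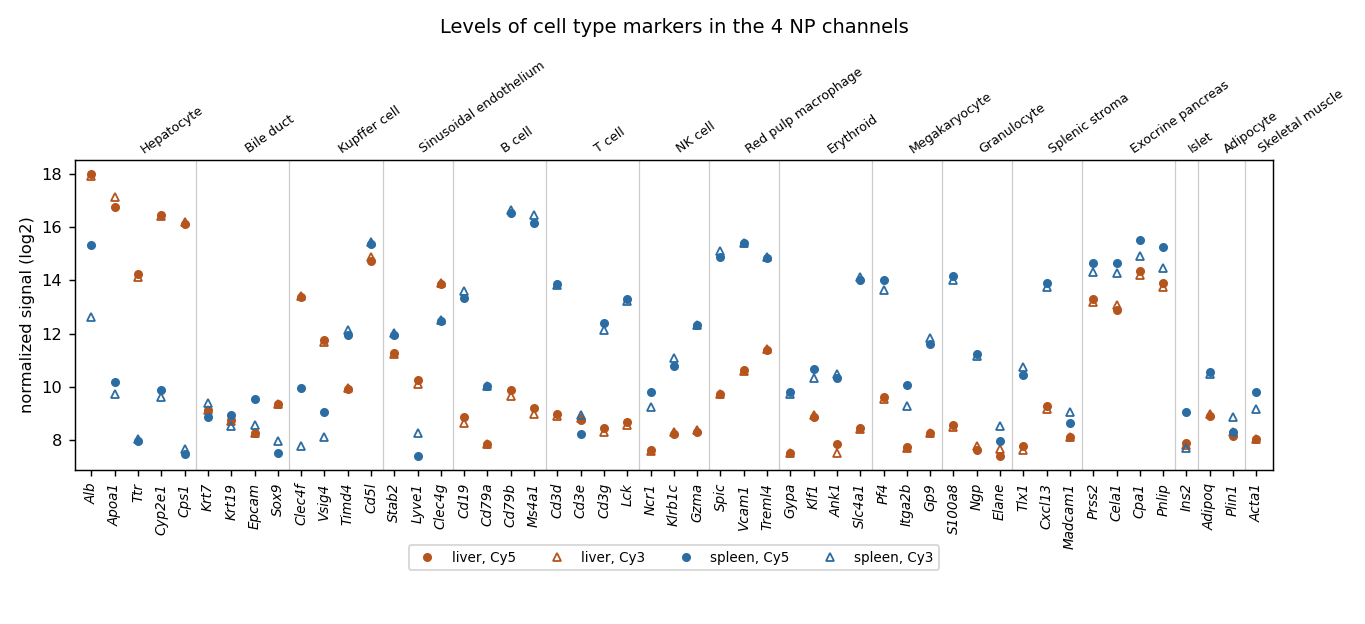
Normalized log2 signal of the measured cell type markers in the 4 NP channels, with liver in orange, spleen in blue, filled circles for Cy5 and open triangles for Cy3, and genes grouped by cell type. The hepatocyte gene Cps1 lies near 16 in liver and below 8 in spleen, while Apoa1 lies at 10.20 and 9.72 in spleen. Most lymphoid and erythroid genes are higher in spleen. The pancreatic enzyme gene Cpa1 lies above 14 in both tissues, while Cela1 lies at 12.89 and 13.08 in liver.

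The genes farthest apart on the liver side were secreted proteins and hepatocyte enzymes. Saa2, an acute-phase apolipoprotein of serum, was at 17.13 in Cy5 liver and 18.17 in Cy3 liver, against 7.81 and 8.09 in spleen. Its ratio was 9.70 ± 0.38, an 832-fold difference. Akr1c6, a hydroxysteroid dehydrogenase, was at 17.42 and 17.23 in liver and 7.82 and 8.06 in spleen (9.39 ± 0.22). Apoh, a phospholipid-binding plasma glycoprotein, was at 17.25 and 17.40 in liver and 8.01 and 8.41 in spleen (9.11 ± 0.12). In all 3 genes the 2 liver channels lay more than 8 log2 units above both spleen channels, which their choice by the size of the ratio largely fixed. Aadac, an esterase of the endoplasmic reticulum, followed at 9.09 ± 0.12, then the calcium-binding regucalcin gene Rgn at 8.86 in Cy5 and 9.14 in Cy3 and the fibrinogen gamma chain Fgg at 8.87 ± 0.08. The sodium-independent bile acid and drug carrier Slco1b2 stood at 8.76 ± 0.14 and the heme-binding hemopexin gene Hpx at 8.67 ± 0.04.

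For a few genes the spleen signal was not well above background on either array, so only a lower bound could be given. The bound was computed on the quantile-scaled levels used elsewhere and on levels normalized by loess and Aquantile, and the smaller of both is given, since the larger does not hold on both scales. Slc2a2, the glucose transporter of hepatocytes, read 14.19 and 14.18 in liver and 7.10 and 7.43 in spleen, where the higher of this value and the lowest well-measured signal of the channel served as the floor. It was at least 109-fold higher in liver by the quantile scale, against 206-fold by the other. Spp2, a secreted phosphoprotein, was at least 94.5-fold higher (183-fold by the other scale), the glucuronosyltransferase Ugt2b35 at least 57.3-fold (108-fold) and A1cf, a cofactor of apolipoprotein B RNA editing, at least 33.6-fold (64.5-fold). Among the genes called higher in liver, 23 had no spleen signal well above background on either array.

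All 31 measured genes of the plasma protein list were called higher in liver, with a median of 6.25. The list held carriers and inhibitors of the blood such as Kng1, the kininogen gene, at 8.22, the vitamin D binding protein Gc at 7.58 and transthyretin Ttr at 6.18 ± 0.09. At its lower end stood Igf1 at 2.60 and Selenop, the selenium carrier, at 1.45. All 14 apolipoproteins and their partners were also called, from Apob, the backbone of very low density lipoprotein, at 7.93, to Apoe at 1.72.

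The coagulation and complement lists held genes on both sides. Of 24 coagulation genes, 19 were called higher in liver and 3 in spleen. Fgg, antithrombin Serpinc1 (7.70) and factor XII F12 (7.28) were on the liver side. On the spleen side were F13a1, the factor XIII subunit known from platelets and macrophages, at -2.75, the tissue factor pathway inhibitor Tfpi at -1.39 and von Willebrand factor Vwf, an endothelial and platelet product, at -1.15. Factor VIII, F8, was higher in liver at 1.54. Of 26 complement genes, 19 were called higher in liver, led by the inhibitor Cfi at 8.76, C4bp at 8.27 and the mannose-binding lectin Mbl2 at 7.79. The 6 called higher in spleen were the 3 chains of C1q, C1qa (-1.99), C1qb (-1.79) and C1qc (-2.08), together with Cfd (-2.74), properdin Cfp (-2.94) and the complement receptor Cr2 of B cells and follicular dendritic cells (-4.95).

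Acute-phase genes were mostly liver genes in these pools. Of 23 measured, 20 were called higher in liver and none in spleen, with a median of 4.53. Saa1 read 17.24 and 18.25 in liver and 9.78 and 8.84 in spleen, a ratio of 8.43 ± 0.98. Saa3, a serum amyloid also known from macrophages, was at 7.49, and Orm2 and Orm1, the orosomucoids, at 7.09 and 6.48. Lcn2 (1.03), Mt2 (0.75) and Il1rn (0.35) were not called.

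Amino acid catabolism and the urea cycle were called higher in liver at all 35 measured genes, with a median of 6.06. Cps1, the carbamoyl phosphate synthetase that starts the urea cycle, read 16.11 and 16.19 in liver and 7.46 and 7.66 in spleen, which is 8.59 ± 0.06. Agxt (7.79), ornithine transcarbamylase Otc (7.59), methionine adenosyltransferase Mat1a (7.55) and Ftcd of histidine breakdown (7.47) were also far apart. The spleen signals of Cps1 and Otc were well above background on 1 of 2 arrays, as were those of Agxt2, Colec10, Foxa3, Nr1i2 and Upp2, which are described further on. Glutamine synthetase Glul, which hepatocytes around the central vein express, was at the lower end with 1.92.

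Carbohydrate genes were high in liver throughout, with 18 of 18 called higher in liver and a median of 5.21. Fbp1 and Pck1, both of gluconeogenesis, were at 8.29 ± 0.02 and 8.24 ± 0.37. The glucagon receptor Gcgr was at 7.73, the regulatory protein gene Gckr at 7.51 and glycogen synthase Gys2 at 7.10. Ppargc1a, the coactivator of fasting gene programs, was the lowest at 1.88.

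Lipid pathways were higher in liver by smaller steps. Of 21 genes of fatty acid synthesis, 20 were called higher in liver (median 3.51), led by the elongases Elovl2 (6.54) and Elovl3 (6.01) and with Acly of citrate cleavage at 1.17. Of 30 genes of fatty acid oxidation and ketone formation, 28 were called higher in liver (median 2.94). The very long chain acyl-CoA synthetase Slc27a2 led at 8.33, while Hadhb of the mitochondrial trifunctional protein was at 1.15 and Pdk4 at 0.24 without a call. Of 26 cholesterol genes, 25 were called higher in liver (median 2.61). The exception was Srebf2, which encodes the transcription factor SREBP-2 that drives those genes, at -1.35.

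Bile acid genes were called higher in liver at 21 of 21, with a median of 5.62. The canalicular bile salt pump Abcb11 read 16.31 and 16.54 in liver and 8.29 and 8.70 in spleen (7.93 ± 0.09). Cyp7a1, which catalyses the first and limiting step from cholesterol to bile acids, read 13.01 and 13.02 in liver and 7.53 and 7.21 in spleen (5.64 ± 0.16). Its spleen signal was well above background on 1 of 2 arrays.

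Of 38 measured cytochromes P450 and partners, 33 were called higher in liver, with a median of 5.55. Cyp2d26 read 17.15 and 17.24 in liver and 9.69 and 9.23 in spleen (7.73 ± 0.28). Cyp2c23 (7.61), Cyp2c29 (7.46), Cyp2c40 (7.37) and Cyp2a5 (7.32) followed. The 2 called higher in spleen were Cyp1b1, known from stromal and immune cells, at -3.19 and Cyp2s1 at -1.55. Conjugating enzymes and esterases were called higher in liver at 37 of 39, and Gsta4 was not called at 1.38. Among genes with sex-biased liver expression 16 of 18 measured were called higher in liver, with the major urinary protein Mup5 at 8.66, the male-biased Elovl3 at 6.01 and Hsd3b5 at 5.94. Probes for the closely related Mup, Cyp2c, Cyp2d, Saa and Ugt2b genes may read each other's transcripts, and their ratios are uncertain for that reason.

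The regulators of the hepatocyte program were themselves higher in liver. Of 25 measured transcription factors on that list, 20 were called higher in liver and none in spleen, with a median of 4.02. The bile acid receptor Nr1h4 was at 5.98. Hnf4a, a nuclear receptor, read 12.91 and 13.02 in liver and 7.80 and 7.64 in spleen (5.24 ± 0.13), the spleen signal being well above background on 1 of 2 arrays. Cebpa was at 3.84, the xenobiotic receptors Nr1i2 and Nr1i3 at 4.37 and 3.06, and Foxa2 and Foxa3 at 5.65 and 4.11. Foxa1 (1.08), Hhex (0.94), Nr1h3 (0.73) and Gata4 (0.16) were among those not called.

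Because Hnf4a and Cebpa were among the factors higher in liver, the promoters of a few leading liver genes are shown with the letters of the sequences these factors are known to bind. They were picked because they hold a match. Each line holds the 130 bases before the transcription start in RefSeq's GRCm38.p6 annotation, 5′ to 3′ on the strand of the gene, for genes with 1 listed start. Capitals mark a match on either strand to CAAAGTCCA (HNF4, present in the 250 bases before 0.384% of 32851 RefSeq starts), TTGCGCAA (C/EBP, 0.164%) or TATAAA (the TATA box, 12.4%). None of the marked matches overlap.
Cyp2c70, chr19:40187287-40187416, minus strand: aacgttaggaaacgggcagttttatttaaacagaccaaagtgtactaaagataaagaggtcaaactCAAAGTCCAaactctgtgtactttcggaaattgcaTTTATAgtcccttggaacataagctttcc
Cyp2c40, chr19:39812815-39812944, minus strand: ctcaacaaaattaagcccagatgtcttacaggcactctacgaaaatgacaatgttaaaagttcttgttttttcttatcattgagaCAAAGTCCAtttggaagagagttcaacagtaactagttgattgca
Cyp3a41a, chr5:145720137-145720266, minus strand: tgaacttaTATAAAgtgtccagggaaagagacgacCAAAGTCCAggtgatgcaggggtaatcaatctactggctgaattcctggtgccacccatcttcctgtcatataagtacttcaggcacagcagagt
Orm2, chr4:63362319-63362448, plus strand: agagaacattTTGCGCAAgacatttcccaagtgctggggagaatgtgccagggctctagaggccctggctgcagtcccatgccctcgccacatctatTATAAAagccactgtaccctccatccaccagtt

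The genes of these promoters had ratios of 7.31 for Cyp2c70, 7.37 for Cyp2c40, 6.69 for Cyp3a41a and 7.09 for Orm2. The HNF4 match began 64 bases before the start of Cyp2c70, 45 before Cyp2c40 and 95 before Cyp3a41a, and the C/EBP match 120 before Orm2. The C/EBP letters also lay before Dck at -1.52 and Samhd1 at -2.59, both called higher in spleen. A match is a description of the sequence and not a bound site. Sets of genes were not compared for motifs or base composition, because RefSeq promoters were at hand for 76.0% of the recognised genes 16-fold higher in liver and 70.6% of those 16-fold higher in spleen, under the 80% such a check needs.

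On the spleen side the farthest genes were those of B cells. Iglv1, an immunoglobulin lambda variable segment, read 17.40 in Cy5 spleen and 17.88 in Cy3 spleen, against 10.21 and 9.85 in liver. Its ratio was -7.61 ± 0.42. Ms4a1, which encodes the B cell antigen CD20, read 16.17 and 16.46 in spleen and 9.19 and 8.97 in liver (-7.23 ± 0.26). Cd79b, the signalling chain of the B cell receptor, was at -6.82 ± 0.18 and Pou2af1, a B cell coactivator of octamer-binding factors, at -6.50 ± 0.22. The 2 spleen channels lay more than 6 log2 units above both liver channels in each of these 4 genes, which their choice by the size of the ratio largely fixed. S100a9, a calcium-binding protein of neutrophils, was at -6.32 ± 0.20, and Cd8b1 of cytotoxic T cells at -6.18 ± 0.12.

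Bounds on the spleen side concerned genes whose liver signal was not well above background on either array. Coch, the cochlin gene, read 14.68 and 14.47 in spleen and 7.66 and 7.17 in liver, and was at least 81.5-fold higher in spleen by the loess and Aquantile scale, against 119-fold by the quantile scale. The Rhesus blood group gene Rhd was at least 35.2-fold higher, again by the smaller bound, the neutrophil granule peptide Camp at least 30.0-fold, the B cell transcription factor Bcl11a at least 21.7-fold and the erythroid gene Hemgn at least 19.3-fold. Among the genes called higher in spleen, 229 had no liver signal well above background on either array. The ratios given further on for Bcl11a, Btla, Cd79a, Eomes, Fcrl1, Gata1, Ltf, Rhd and Tlx1 are of this kind. By the smaller bound Btla was at least 17.9-fold higher in spleen, Fcrl1 and Ltf at least 14.7-fold, Tlx1 at least 6.31-fold, Cd79a at least 3.98-fold, Gata1 at least 2.98-fold and Eomes at least 2.13-fold.

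Of 29 measured B cell genes, 28 were called higher in spleen and none in liver, with a median of -4.77. The survival factor receptor Tnfrsf13c was at -6.09, the IgM receptor Fcmr at -6.14 and the follicle-homing receptor Cxcr5 at -5.62. The B cell identity factor Pax5 read 12.66 and 12.70 in spleen and 7.93 and 7.89 in liver (-4.77 ± 0.03). Cd79a was at -2.16 ± 0.01 with a liver signal not well above background on either array. The uncalled gene was Zfp318 at -0.67. In the list of immunoglobulin and plasma cell genes, 8 of 12 were called higher in spleen, with the joining chain Jchain at -5.66 and Mzb1 at -5.68. Sdc1, a surface marker of plasma cells that hepatocytes also carry, was higher in liver at 3.22.

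T cell genes were called higher in spleen at 25 of 33, with a median of -2.67. Cd3d, a chain of the T cell receptor complex, read 13.88 and 13.84 in spleen and 8.99 and 8.91 in liver (-4.91 ± 0.02). Lck, the kinase behind that receptor, was at -4.64 and Cd5 at -4.67. Cd3e (0.20), Cd4 (-0.31) and Zap70 (-0.17) were not called although they belong to the same cells. The second Cd3e probe gave -0.45 and the second Cd4 probe -0.65, also without a call.

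Probes of a gene did not always point the same way. The platelet integrin Itgb3 was at -2.84 by its brightest probe, at chr11:104779399-104779458 in mm7, the build of the array's probe positions, and at 2.10 by its other probe, at chr11:104776217-104776287. In all, 12 of 6419 genes with several measured probes had probes called in opposite directions. Of the 2338 with a called probe, 1484 also had a probe without a call.

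Natural killer and cytotoxic genes were called higher in spleen at 18 of 19 (median -2.35), from the chemokine Ccl5 at -4.97 and Klrd1 at -4.62 to Eomes at -1.29. Among dendritic cell genes, 8 of 13 were called higher in spleen, with the transcription factor Irf8 at -4.56 and the integrin Itgax at -3.80, while Zbtb46 (-0.62) and Xcr1 (0.62) were not called.

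Antigen presentation genes were mostly called higher in spleen. Of 23 genes on that list, 18 were called higher in spleen, with a median of -3.25. The class II genes were far apart, with H2-Aa at 14.94 and 15.22 in spleen and 10.14 and 10.12 in liver (-4.95 ± 0.15), H2-Oa at -5.45, Cd74 at -4.17 and their activator Ciita at -4.70. The classical class I genes H2-K1 (-0.38) and H2-D1 (-0.97) and their light chain B2m (-0.27) were not called, nor was H2-T23 (-0.35). Other genes of the class I route were called higher in spleen, namely H2-M3 (-3.29), Psmb8 (-2.37), Psmb9 (-2.27), Tap2 (-1.51), Tapbp (-1.32) and Tap1 (-1.21). Cd1d1, which presents lipids, was called higher in liver at 1.80.

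Genes shared by most leukocytes were called higher in spleen at 29 of 30, with a median of -3.77. Ptprc, which encodes CD45, read 15.52 and 15.73 in spleen and 10.29 and 10.36 in liver (-5.30 ± 0.07). The actin regulator Coro1a was at -5.55. The uncalled gene was the kinase Fyn at -0.56.

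Blood-forming transcription factors were called higher in spleen at 33 of 47 and in liver at none, with a median of -1.97. Lyl1 (-5.29), Spib (-5.03), Bcl11a (-4.85, with the bound given for it) and Pax5 (-4.77) led them, and Ikzf1 was at -3.70. Spi1, which encodes the myeloid and B cell factor PU.1, was at -0.96 and the erythroid factor Gata1 at -1.58, the first without a call. Promoters of 3 spleen genes that hold the PU.1 letters GAGGAAGT, found in 2.44% of the same RefSeq windows, are shown in the same form.
Cd5, chr19:10738975-10739104, minus strand: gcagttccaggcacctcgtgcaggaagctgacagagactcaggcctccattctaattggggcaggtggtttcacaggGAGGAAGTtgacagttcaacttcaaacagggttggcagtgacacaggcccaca
Btla, chr16:45224207-45224336, plus strand: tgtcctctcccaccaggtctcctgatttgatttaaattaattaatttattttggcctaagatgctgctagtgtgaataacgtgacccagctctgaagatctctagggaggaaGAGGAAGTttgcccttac
Fcrl1, chr3:87376257-87376386, plus strand: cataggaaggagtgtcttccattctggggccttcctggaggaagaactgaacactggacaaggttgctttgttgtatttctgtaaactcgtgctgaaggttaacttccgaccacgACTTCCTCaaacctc

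The ratios of those genes were -4.67 for Cd5, -4.42 for the lymphocyte inhibitor Btla and -4.11 for the B cell Fc receptor-like gene Fcrl1. The match lay 53, 18 and 15 bases before the start. The same letters also lay before Fbp1, a liver gene at 8.29.

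Erythroid genes were called higher in spleen at 31 of 36, with a median of -2.37. Slc4a1, the anion exchanger band 3 of red cells, read 14.03 and 14.13 in spleen and 8.47 and 8.43 in liver (-5.63 ± 0.07). Carbonic anhydrase Car2 was at -5.03, and Rhd, at -5.36, has only the bound given for it. Megakaryocyte and platelet genes were called higher in spleen at 11 of 16, with the platelet chemokines Ppbp at -4.96 and Pf4 at -4.24. Granulocyte genes were called at 15 of 21, with S100a8 at -5.56 and Chil3 at -5.75, while Elane (-0.71) and Prtn3 (0.21) were not called.

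Cell cycle and replication genes were called higher in spleen at 30 of 36 and in liver at none, with a median of -2.31. The proliferation antigen Mki67 read 14.25 and 14.16 in spleen and 9.14 and 9.11 in liver (-5.07 ± 0.03). Birc5 was at -4.30, the replicative helicase subunit Mcm6 at -3.60 and cyclin Ccnb2 at -3.69. E2f1 was near equal at -0.15.

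Macrophage genes lay on both sides. Of 12 genes of red pulp and marginal zone macrophages, 11 were called higher in spleen (median -2.43). Spic, the transcription factor of iron-recycling red pulp macrophages, read 14.89 and 15.12 in spleen and 9.73 and 9.74 in liver (-5.27 ± 0.11). Of 17 genes on the Kupffer cell list, 3 were called higher in liver and 8 in spleen. The 3 were the lectin Clec4f (4.52 ± 1.12), the complement receptor Vsig4 (3.15 ± 0.44) and the folate receptor Folr2 (2.81). The scavenger receptor Marco (-3.75), Csf1r (-2.65) and Timd4 (-2.10), which splenic macrophages share, were higher in spleen, and Cd5l (-0.61) and Cd163 (-0.72) were not called.

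Stromal genes divided in a similar way. On the stellate cell and fibroblast list, 8 of 21 were called higher in liver and 9 in spleen. The collectins Colec10 (6.06 ± 0.05) and Colec11 (4.97), reelin Reln (3.15) and the retinol storage gene Lrat (1.68) were higher in liver. Col1a2 (-2.97), smooth muscle actin Acta2 (-2.24) and Pdgfrb (-2.17) were higher in spleen. On the endothelial list 7 of 21 were higher in liver, among them Oit3 (3.41), Lyve1 (2.35) and Clec4g (1.40), and 4 in spleen, with Cd34 at -2.31, whereas Stab2 was at -0.75 without a call. On the splenic stroma list 8 of 15 were higher in spleen and 1 in liver, the lymphotoxin beta receptor gene Ltbr at 1.89 ± 0.22. The 8 included the homing chemokines Ccl19 (-5.17) and Cxcl13 (-4.62) and Tlx1, the homeobox gene that spleen formation needs, at -2.88 ± 0.23. The bile duct keratins Krt7 (0.00) and Krt19 (0.01) did not separate the organs, while Krt8 (6.23) and Krt18 (6.01), which hepatocytes carry, did.

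**Figure D3:**
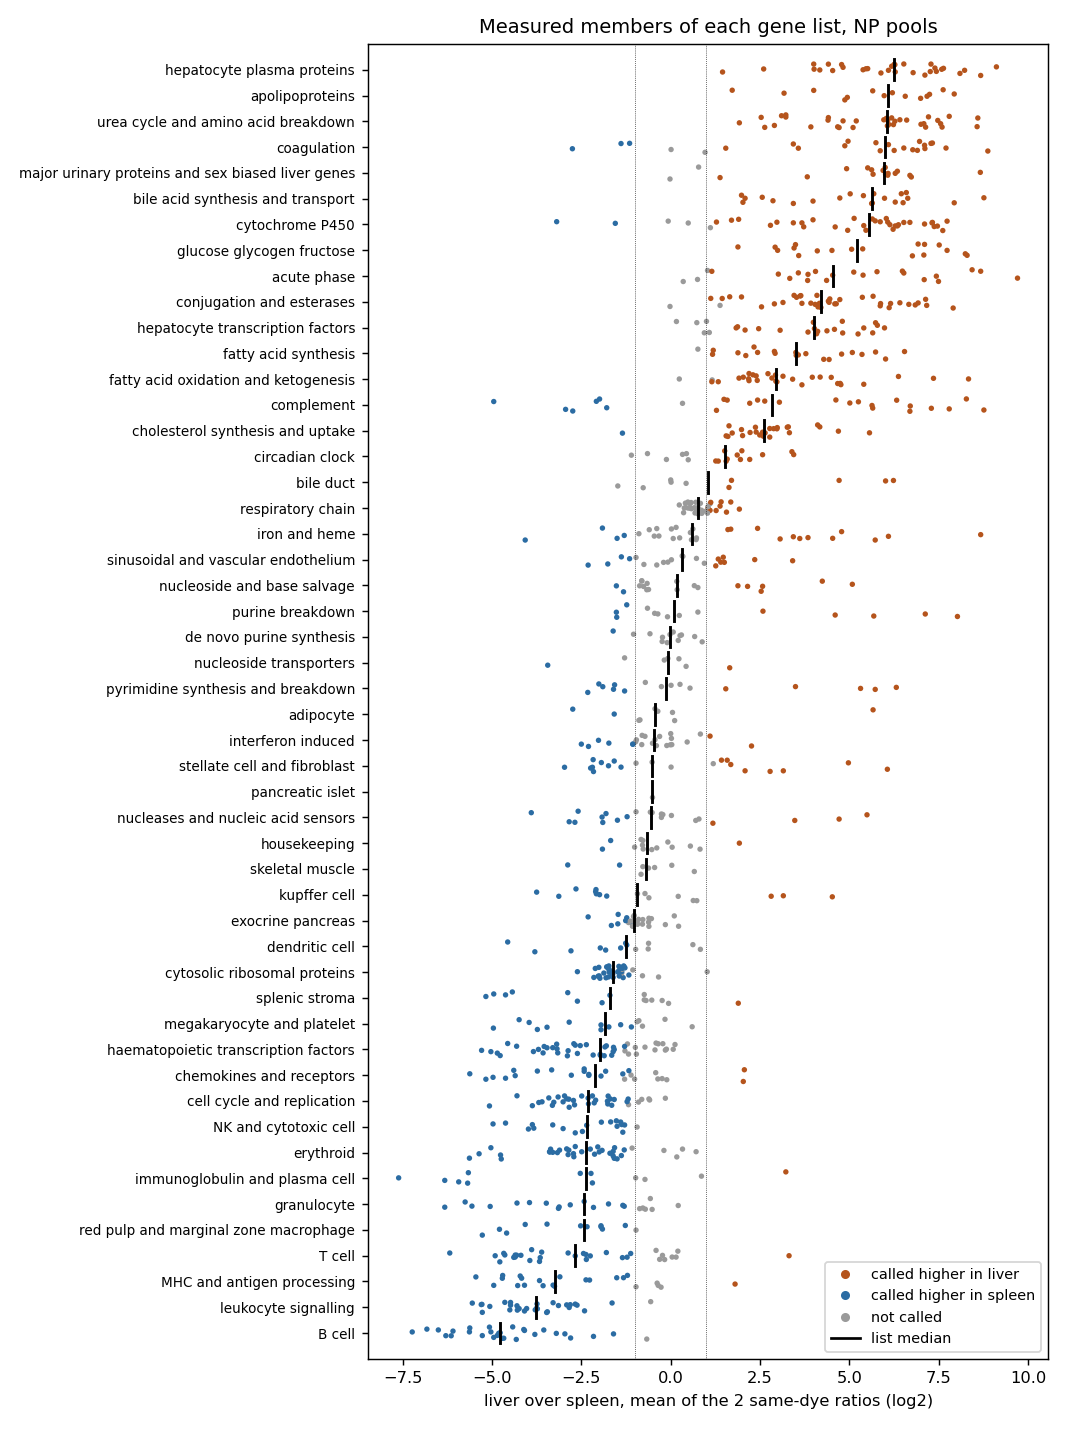
Liver over spleen log2 ratio (mean of both dyes) of each measured member of the 50 gene lists, ordered by list median (black bar), with genes called higher in liver in orange, called higher in spleen in blue and not called in grey, and dotted lines at a 2-fold difference. Plasma proteins lie highest with a median of 6.25 and B cell genes lowest with -4.77.

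Because the diet under study supplied nucleic acids, the genes that make, reuse and degrade nucleotides were described apart. Their counts stand beside 13.5% of all measured genes called higher in liver and 15.9% in spleen. The purine breakdown genes higher in liver included those of its last steps. Of 14 measured purine breakdown genes, 5 were called higher in liver and 3 in spleen, with a median of 0.08. Uox, urate oxidase, read 17.23 and 17.39 in liver and 9.76 and 8.81 in spleen (8.02 ± 0.56), and Urah, which acts on its product, was at 7.12 ± 0.21. Xdh, the xanthine oxidoreductase that forms urate, was at 2.58 ± 0.37, and the aldehyde oxidases Aox3 and Aox1 at 5.68 and 4.60. Earlier enzymes were near equal, with Pnp at 0.24 and Gda at -0.36, or higher in spleen, with adenosine deaminase Ada at -1.52 and the nucleotidases Nt5c at -1.51 and Nt5c3 at -1.23.

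Pyrimidine genes divided by direction of the pathway. The reductive breakdown enzymes Dpyd (6.31 ± 0.15), Dpys (5.31 ± 0.22) and Upb1 (5.72, with both dyes within 0.01) act in sequence and were all called higher in liver, as was Agxt2 (3.49), which handles a product of that route. Upb1 read 16.32 and 16.39 in liver and 10.60 and 10.67 in spleen. Several genes that build pyrimidines and deoxynucleotides were called higher in spleen, with Cad at -1.29, Ctps at -1.57, Dut at -2.01 and the ribonucleotide reductase subunits Rrm1 and Rrm2 at -2.32 and -1.60. Umps (0.54) and Dhodh (0.01) were not called.

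Genes that make purines anew were mostly near equal. Of 13 genes, none was called higher in liver and 1 in spleen, Impdh1 at -1.61, with a median of -0.02. Of 19 salvage genes, 6 were called higher in liver, led by uridine phosphorylase Upp2 (5.08 ± 0.04) and adenosine kinase Adk (4.24 ± 0.26), and 2 in spleen, deoxycytidine kinase Dck (-1.52) and Ak1 (-1.32). Hprt (-0.76) and Aprt (-0.66), which reclaim purine bases, were not called. Of 7 nucleoside transporters, the concentrative carrier Slc28a2 read 11.71 and 11.95 in spleen and 8.35 and 8.42 in liver (-3.44 ± 0.09). The equilibrative carrier Slc29a1 was higher in liver at 1.65 ± 0.01, and the other 5 were not called. The transporters' share of calls was near the 29.4% over all measured genes.

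Among nucleases and sensors of nucleic acids, 4 of 22 were called higher in liver and 9 in spleen. The secreted ribonucleases Rnase4 (5.49) and Ang (4.71) were higher in liver. The sensors Sting1 (-3.90) and Tlr7 (-2.68), the exonucleases Pld4 (-2.84) and Pld3 (-1.92) and the nucleotide hydrolase Samhd1 (-2.59) were higher in spleen. Tlr9, a receptor for DNA in B and dendritic cells, was called higher in liver at 3.47 ± 0.08. In the RefSeq annotation Tlr9 lies between Twf2, at -3.78, and the heme synthesis gene Alas1, at 3.06, and whether its probe read a neighbouring transcript was not tested.

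Iron genes also lay on both sides. Hepcidin, Hamp, the hormone that limits iron release, read 16.06 and 15.46 in liver and 9.63 and 9.73 in spleen (6.09 ± 0.35). The transferrin receptor form Tfr2 of iron sensing (5.72), transferrin Trf (4.78) and ceruloplasmin Cp (3.84) were also higher in liver. Heme oxygenase Hmox1, which opens the heme ring, read 15.43 and 15.50 in spleen and 11.46 and 11.34 in liver (-4.07 ± 0.10), and the iron exporter Slc40a1 was at -1.91. The ferritin chains Fth1 (0.07) and Ftl1 (0.55) were not called. In all, 12 of 30 iron and heme genes were called higher in liver and 4 in spleen.

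Related genes that do the same task in different tissues were set side by side in 31 pairs. The form known from liver was called higher in liver in 28 pairs, and the other form was called higher in spleen in 17. Both held in 15. Pyruvate kinase Pklr read 10.90 and 10.99 in liver and 7.95 and 7.94 in spleen (2.99 ± 0.05), while Pkm read 9.62 and 9.59 in liver and 12.39 and 12.47 in spleen (-2.82 ± 0.05). Mat1a stood at 7.55 and Mat2a at -1.66, Pck1 at 8.24 and the mitochondrial Pck2 at -2.14, and transferrin Trf at 4.78 and lactoferrin Ltf at -3.95. In 5 pairs the other form was higher in liver too, as for Gstm1 at 3.64 and Gstp1 at 2.54, and in 9 it was not called or, for Upp1, not measured, as for Arg1 at 7.08 and Arg2 at -0.30. Pfkl (0.37), Gata4 (0.16) and Adss (0.30), the non-muscle partner of Adssl1, were the liver-side forms without a call. Each ratio is within 1 gene, and levels of different genes were not compared.

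**Figure D4:**
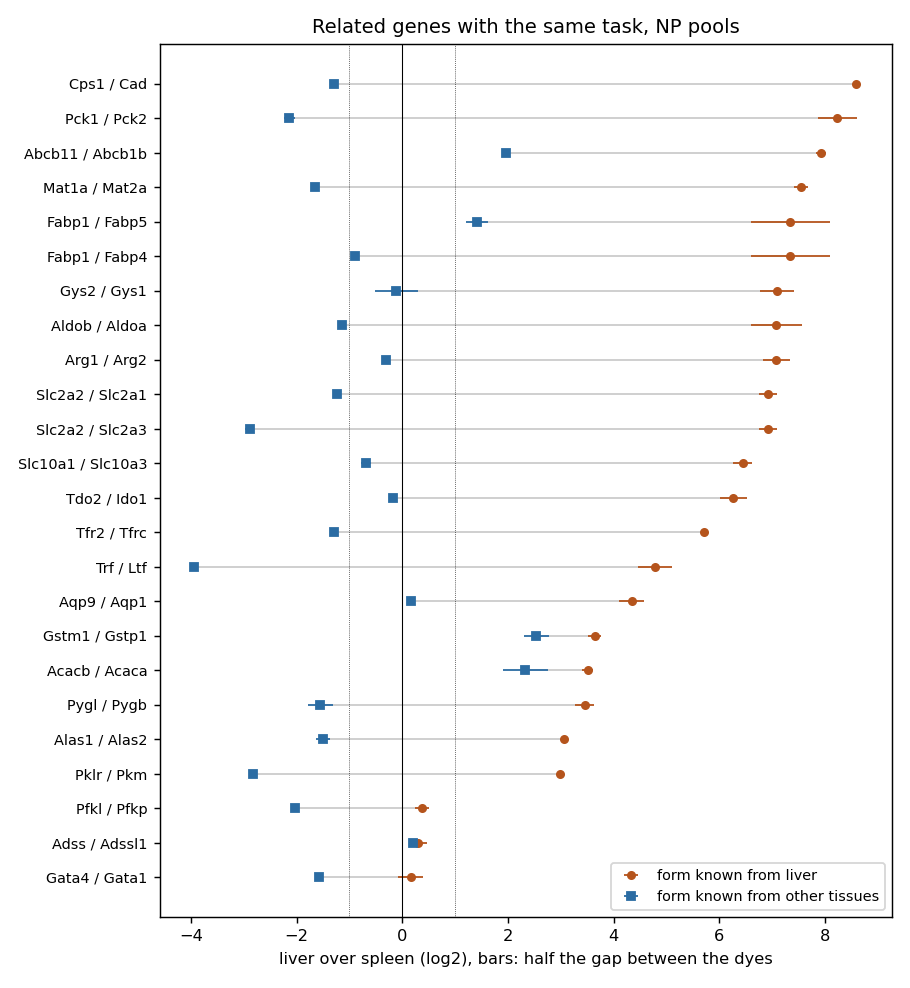
Liver over spleen log2 ratio of the form known from liver (orange circle) and of the form known from other tissues (blue square) for the pairs shown, each with both genes measured, with bars from the lower to the higher dye ratio of each gene. Cps1 and Cad lie at 8.59 and -1.29 and Pklr and Pkm at 2.99 and -2.82, while Gstm1 and Gstp1 both lie on the liver side at 3.64 and 2.54.

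Some genes used by every cell were not equal between the organs on this scale. Over all measured genes, 13.5% were called higher in liver and 15.9% in spleen. Of 39 cytosolic ribosomal protein genes, 33 were called higher in spleen and none in liver, with a median of -1.62. Rps19 read 16.77 and 16.85 in spleen and 14.25 and 14.15 in liver, and Rps27l, a stress-induced relative, was the highest at 1.02 ± 0.06. Of 35 respiratory chain genes, 9 were called higher in liver and none in spleen, with a median of 0.77 and succinate dehydrogenase Sdha at 1.92. With median centring in place of quantile scaling the ribosomal median was -0.97 and the respiratory chain median 1.42, both with the same sign. Among 14 genes often taken as constant, 11 were not called, a share of calls below the 29.4% over all measured genes. Actb was at -1.91 and Tubb5 at -1.68, both called higher in spleen. Sdha, also on that list, was called higher in liver, and Tbp was at 0.04 without a call.

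Of 18 clock genes, 12 were called higher in liver and none in spleen, with Hlf at 3.39, the output gene Dbp at 1.86 and Nr1d1 at 2.21. Arntl, whose peak opposes that of Nr1d1 and Dbp, was at -1.10 without a call. The time of day at which either organ was taken was not given in the sources used here. Of 24 interferon-induced genes, 16 were not called, 6 were higher in spleen such as Rsad2 (-2.50) and 2 in liver, Iigp1 (2.26) and Oasl1 (1.10). Their share of calls was near the 29.4% over all measured genes. Chemokines and their receptors were called higher in spleen at 17 of 26, with Ccr6 at -4.39, whereas Ccl9 (2.06) and Cxcl1 (2.03) were higher in liver.

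Genes of exocrine pancreas, an organ next to the spleen, had high signals in both tissues. Carboxypeptidase Cpa1 read 14.36 and 14.21 in liver and 15.51 and 14.92 in spleen, and pancreatic lipase Pnlip read 13.91 and 13.75 in liver and 15.27 and 14.46 in spleen. Of 27 such genes, 7 were called higher in spleen and none in liver, with a median of -1.02 and the largest difference at Reg2 (-2.31). Over all measured genes, 15.9% were called higher in spleen and 29.4% in either direction, so these counts do not set the pancreatic genes apart. Of 6 islet genes only Ins2 was measured, without a call. Of 13 skeletal muscle genes 8 were measured and 2 called higher in spleen, and of 11 adipocyte genes 9 were measured. Of these, Car3 was called higher in liver at 5.66, and Cfd (-2.74) and Adipoq (-1.58) in spleen. The part of pancreatic RNA in the other ratios was not tested.

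The same ratios in the low-NP pools, on the other dye of the same arrays, gave fewer calls. Among 18494 genes measured there, 1801 (9.74%) were called higher in liver and 1705 (9.22%) in spleen. Of the 2478 genes called higher in NP liver, 1785 (72.0%) were also called higher in low-NP liver, which is 99.1% of the low-NP calls, and none was called in the opposite direction. For spleen, 1668 of 2927 (57.0%) were shared, which is 97.8% of the low-NP calls. Both diets share arrays but not RNA.

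The gap was widest for the genes that set the NP organs farthest apart. The 490 genes 16-fold higher in NP liver had a median of 5.63 in the NP pools, where the threshold chose them, and 2.16 in the low-NP pools, and all 490 were smaller in low NP. The 214 genes on the spleen side had medians of -4.60 and -2.19, and all 214 were smaller in low NP. Apoh stood at 9.11 in NP and 0.82 in low NP, Fgg at 8.87 and 0.26, Ms4a1 at -7.23 and -2.54, and Iglv1 at -7.61 and -1.59. Saa2 kept 4.39 in low NP and the neutrophil gene S100a9 kept -3.70. Among all called genes, 23 of those higher in liver and 10 of those higher in spleen were farther apart in low NP than in NP. Exocrine pancreas genes went that way, with a median of -1.02 in NP and -1.96 in low NP and 25 of 27 lower in low NP, such as Pnliprp1 at -1.48 and -2.55.

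Within arrays the gap lay in the organ where those genes were low. On the spleen arrays the 490 liver genes had a median NP over low-NP ratio of -2.85 and -3.95, against 0.19 and 0.13 on the liver arrays. On the liver arrays the 214 spleen genes had medians of -1.53 and -2.69, against 0.11 and 0.18 on the spleen arrays. Both sets were chosen by their NP signals, so a low NP signal in the dimmer organ was partly fixed by that choice. For these 490 genes the low-NP spleen pool held more signal than the NP spleen pool. For these 214 genes the low-NP liver pool held more signal than the NP liver pool. The source of that signal was not tested.

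**Figure D5:**
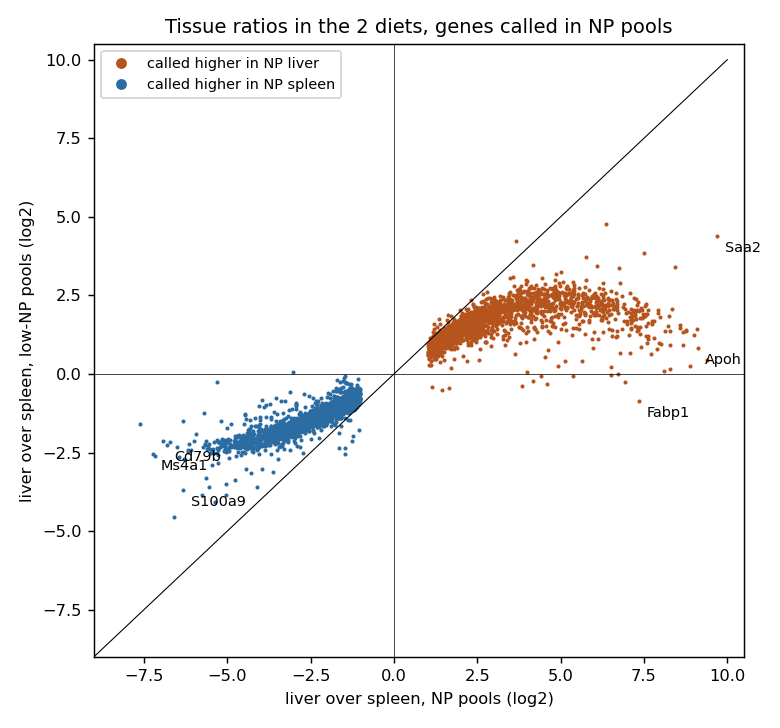
Liver over spleen log2 ratio in the NP pools (horizontal axis) and in the low-NP pools (vertical axis) for genes called in the NP pools, with liver calls in orange, spleen calls in blue and the line of equal ratios drawn. Most points lie closer to 0 on the low-NP axis, as for Apoh at 9.11 and 0.82, some pancreatic genes such as Reg1 lie farther at -1.66 and -2.37, and Fabp1 lies below 0 at -0.86.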

How the data were processed

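RNA of NP and low-NP pools was hybridised to Agilent mouse whole-genome 2-colour arrays, 2 per tissue with dyes exchanged and all on 1 slide. The deposited values are spot intensities (mean signal and median local background per channel) from Agilent Feature Extraction 9.5.3.1, per the submitters' processing notes and the file headers, without normalization between arrays. The authors' value tables were not used here.

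Intensities were background-corrected with normexp (offset 50, limma 3.58.1, R 4.3.3). Control spots and outlier-flagged spots were left out, and the 4 NP channels were quantile-scaled. Spots of a probe were averaged, and a gene took its brightest probe. Names came from RefSeq GRCm38.p6 for 32719 of 41174 probes by accession, symbol or unique synonym, and otherwise from the array file. Probe coordinates are mm7. Dye-swapped arrays of 1 pool count as 1 replicate, so no test was run. The calling rule was tested on simulated ratios.

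Named genes were the 15 farthest per tissue, the 10 largest bounds, up to 6 called and 3 other members per list, all pairs, nucleotide genes and markers. A gene named outside this rule was chosen after its values were seen. Members, lists and pairs were chosen with earlier results of these data known. Alternatives covered background, scaling, filters, probes, single dyes and, added after seeing the data, a negative-control background. Some genes are not reported here.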

Additional observations from a re-analysis of the deposited data

Results flagged for a closer look

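Fabp1, the fatty acid binding protein of hepatocytes, was higher in liver in the NP pools and not in the low-NP pools, and this difference was not tested. In the NP pools its liver over spleen log2 ratio was 7.35 ± 0.75, with 17.44 and 17.02 in liver and 10.85 and 8.92 in spleen. In the low-NP pools it was -0.86, from -1.71 in Cy3 and 0.00 (below 0 before rounding) in Cy5. It was not called there. Fabp1 was 1 of 12 genes called higher in NP liver whose mean ratio was below 0 in low NP, among them Ces1c (6.92 and -0.25), Ahsg (4.17 and -0.24), Selenop (1.45 and -0.52) and Mt1 (1.15 and -0.40). The low-NP spleen pool also held more signal than the NP spleen pool for the 490 genes 16-fold higher in NP liver, which were chosen by their NP signals. The part of that signal in these values was not tested.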

How the results depend on the processing

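No paired analysis was possible because no test was run on 1 pool per tissue. Counts of called genes stayed within 1.5 times of the values given in 41 of 44 recomputations. The exceptions were at 16-fold. The scanner software's processed signals gave 791 genes higher in liver and 602 in spleen, against 490 and 214, and median centring gave 90 higher in spleen. The cause was not tested. At 2-fold the counts ran from 2196 to 3574 for liver and from 2326 to 4203 for spleen, and no called gene was called the other way under any alternative. The alternatives that changed only the filter or used a single dye kept the same ratios, so a called gene could not reverse there. With no filter on signal, and with detection against negative controls, the counts did not change at all. Median centring moved the median of all genes from -0.06 to 0.06 and the liver share of calls from 45.8% to 53.0%. No list median in which at least 50% of the members were called changed sign. Of 488 named genes measured, 1 did, Abcb1b (1.97 to -0.45 under the median over probes), where other probes of the gene enter. The size of a ratio was less stable than its sign. It moved by more than the spread between dyes in 1316 of 5302 recomputations of named genes and in 197 of 549 of list medians. Precision is limited by 1 pool per tissue and by low signal over background in the dimmer organ.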

Other observations

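Gene families were also counted by the stem of their symbols, after the values were seen. Only stems with at least 5 measured genes and at least 60% of them called in the same direction were kept. The high shares given here were therefore largely fixed by that choice, and the number of stems examined is not given. Over all measured genes, 13.5% were called higher in liver and 15.9% in spleen. Peroxisome assembly genes (Pex) were called higher in liver at 13 of 16, with a median of 1.86. The Hsd3b family of steroid dehydrogenases was called higher in liver at 7 of 7 (median 4.73), Gstm glutathione transferases at 6 of 7 (2.94) and Akr1c reductases at 6 of 8 (5.11). In spleen, Gimap genes, GTPases of lymphocytes, were called at 6 of 7 (median -3.01), Klra receptors of natural killer cells at 10 of 13 (-2.24), Igkv light chain segments at 13 of 14 (-3.55) and Ms4a genes at 8 of 10 (-2.31). Histone families did not share a direction. The H4c genes were called higher in spleen at 4 of 5 (median -1.54) and the H2ac genes at 6 of 9 (-1.99), while the H2bc genes were called higher in liver at 4 of 5 (2.23). Probes for members of these families may read each other's transcripts. Of 9 Mcm genes of DNA replication, 6 were called higher in spleen, and Mcm10 was called higher in liver at 3.42 ± 0.02.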
